A study of Rattus norvegicus with 4 samples.

Results

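The cytosolic ribosomal protein genes encode the proteins of the large (60S) and small (40S) subunits of the ribosome that translates nuclear mRNAs. Their probes were taken by name: every gene probe whose accession stands for a rat RefSeq symbol of the form Rpl or Rps with a number, Rplp0 to Rplp2, or Rpsa, with pseudogene symbols left out. This gave 77 genes, 46 of the 60S and 31 of the 40S subunit, read by 187 probes on 773 spots, out of 16581 named genes and 45598 probes on the array. The gene table holds 79 such symbols, and Rpl37 and Rps9 had no probe under their accessions. All 187 probes kept a value on every array, and 0 of their spots were saturated.

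The 4 arrays come from NR8383 cells, a macrophage line started from the lung lavage of a normal rat, labelled with 20 passages. All had been given the zinc ferrite particle NRCWE021 (ZnFe2O4), dosed at 17 µg/mL, and were taken after 4 h. The series sets these cells against untreated ones, and per its design each condition was run as 4 biological replicates. Arrays of untreated cells were not analysed here, so no value measures an effect of the particle. NR8383 is a single cell line, and its replicates are cultures rather than animals.

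Ribosomal proteins are made in near equal amounts, since each sits once, or in the stalk a few times, in every ribosome, and their mRNAs are among the most abundant of a growing cell. In mammals these mRNAs begin with a C followed by an unbroken run of C and T, the 5′ terminal oligopyrimidine (TOP) motif. Through this motif, mTORC1 and the RNA-binding protein LARP1 switch the translation of the whole family on and off together. That control acts on translation, which mRNA arrays do not measure.

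The TOP motif was read from the RefSeq promoter table (GRCr8), which had entries for 62 of the 77 measured genes, 63 entries in all because Rps27a has 2. A run was counted when a C lying within 5 bases of the annotated start was followed by 4 or more bases that were each C or T, on the strand of the gene. It was present at 38 of the 63 starts (60.3%), against 17.0% of all 33469 promoters in the table and 16.5% of the 21851 of protein coding genes. On the opposite strand the same letters were found at 3 of the 63 starts (4.76%) and at 21.1% of all starts. Each window printed here has 30 bases, 5′ to 3′, and begins 10 bases before the annotated start, with the run in capitals. They are shown because they set genes with a run beside members that have none, among them both measured members whose symbol ends in l.
Rplp0: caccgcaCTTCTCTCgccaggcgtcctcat
Rplp1: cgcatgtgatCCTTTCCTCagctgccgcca
Rpl9: aggacgttCTCTCTTTgccccatctactgc
Rpl10: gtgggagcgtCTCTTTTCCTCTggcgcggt
Rpl10a: cttctgCCTTCTTTTCCggttcccgcagcc
Rpl39: taatcgcgttCTTCCggcctgtcctttctc
Rps27: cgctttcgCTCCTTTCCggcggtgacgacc
Rps27l: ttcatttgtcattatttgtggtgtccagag
Rpl3: gcctgctcgatctctatcggcggcgtgtgg
Rpl3l: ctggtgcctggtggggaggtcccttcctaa
In the GRCr8 build, these windows lie at chr12:46718371-46718400 on the minus strand for Rplp0, chr8:71290853-71290882 on the minus strand for Rplp1, chr14:43247580-43247609 on the plus strand for Rpl9 and chrX:157205840-157205869 on the plus strand for Rpl10. Those of Rpl10a, at chr20:6390523-6390552, Rps27l, at chr8:76443648-76443677, and Rpl3l, at chr10:14258436-14258465, are on the plus strand. Those of Rpl39, at chrX:121195877-121195906, Rps27, at chr2:177964587-177964616, and Rpl3, at chr7:113507971-113508000, are on the minus strand. The last 3 windows listed, those of Rps27l, Rpl3 and Rpl3l, hold no run within 5 bases of the annotated start. The Rpl3l window has a stretch of C and T further downstream, outside the bases searched. An annotated start can be some bases off, so a missing run says only that these letters are not within 5 bases of it.

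Values are processed signals, the scanner software's background-subtracted intensity in arbitrary units, and levels, which are log2 of that signal minus the 75th percentile of the array. The arrays were not alike. On replicates 1 to 4 the median signal of all gene spots was 13.5, 542, 133 and 7.37 units, and 47.0%, 89.5%, 70.5% and 41.6% of spots were marked well above background. The dimmest control RNA added to the samples read 3.83, 537, 109 and 3.92 units in the same order, so replicates 2 and 3 carried a raised floor. Counts of detected genes are therefore also given for replicates 1 and 4 alone. Of 9 measured macrophage markers, 8 were well above background on all 4 arrays, among them Cd68 at 9443, 7650.3, 7585 and 5909 units, and Adgre1 was so on 0 arrays. Itgam at 226 and Cd14 at 244 units lay under the dimmest control RNA on replicate 2. Of 6 epithelial, 4 T cell, 1 B cell and 4 fibroblast markers, 0 were well above background on both replicates 1 and 4. On replicate 2, 5 of the epithelial and all of the T cell, B cell and fibroblast markers were. Some lay over the dimmest control RNA there, as Col1a1 at 1474 and Krt8 at 1047 units. Others lay under it, as Epcam at 334 units. The cause was not tested. In RNA of whole cultures, fewer cells of a type and less RNA per cell cannot be told apart.

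All 77 ribosomal protein genes stood well above background on each of the 4 arrays, where 42.5% of the 16526 named genes with a value on every array were. On replicates 1 and 4 alone the count was also 77, against 46.0% of named genes. A stricter limit, 3 SD above the dimmest added control RNA of the same array, was passed on every array by 76 of the 77 genes and by 15.4% of named genes. The gene that did not pass was Rpl3l. The brightest probe of a gene read over 1000 units on every array in 76 of the 77 genes, again all but Rpl3l, and in 8.68% of named genes. For 67 measured mitochondrial ribosomal protein genes, whose products build the separate ribosome of mitochondria, 66 were well above background on all arrays, 67 on replicates 1 and 4 alone, and 40 passed the stricter limit.

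The median signal over the 77 genes was 59929.8, 42403, 32903 and 35206 units on replicates 1 to 4. Over all named genes it was 21.5, 552, 146 and 11.3 units. The median of the ribosomal protein genes was thus highest on replicate 1 and lowest on replicate 3, where that of all genes was highest on replicate 2 and lowest on replicate 4. The median level was 8.02 for the 77 genes, 7.97 for the 60S and 8.03 for the 40S members, and -1.43 for all named genes. Signals of different probes depend on their sequences and do not rank the genes by mRNA amount.

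**Figure D1:**
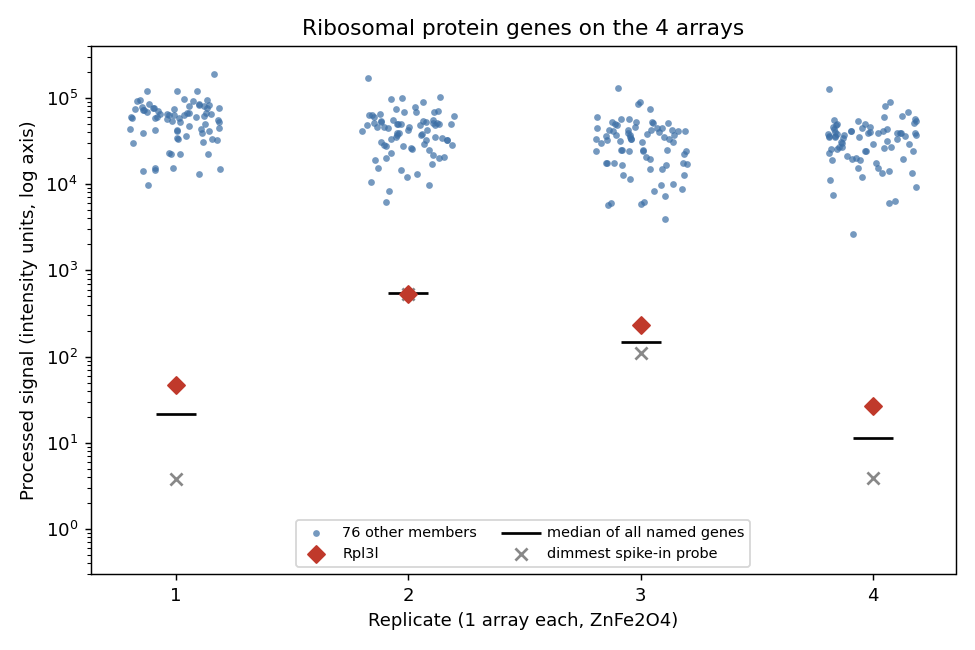
Processed signal (intensity units, log axis) of each ribosomal protein gene on the 4 arrays of exposed NR8383 cells, 1 point a gene, with Rpl3l as a diamond, the median of all named genes as a bar and the dimmest added control RNA as a cross. The 76 other genes stay between 2611 and 187377 units on every array, while Rpl3l, the median gene and the control move up together on replicates 2 and 3.

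The stalk of the large subunit, which recruits the elongation factors to the ribosome, is built from Rplp0 and the acidic proteins Rplp1 and Rplp2. Rplp1 read 76492, 68219, 52269 and 44889.7 units on replicates 1 to 4. Rplp2 read 95017, 69016, 56946 and 54241 units. Both were highest on replicate 1 and lowest on replicate 4, with a highest over lowest signal of 1.70 and 1.75. Rplp0, the base of the stalk and a common reference gene for quantitative PCR, read 95999.5, 89699, 59511 and 27243 units. Its signal on replicate 4 was low beside the other 3 arrays, and its highest over lowest signal was 3.52.

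Rpl5 and Rpl11 carry the 5S RNA into the large subunit and, with Rpl23, can bind MDM2 and so stabilise p53. Rpl11 read 72120.1, 49219, 35907 and 36992 units, a level of 8.14 ± 1.87 (SD, n = 4). The SD of each level, here and below, depends on the percentiles subtracted, and before scaling that of Rpl11 was 0.47 log2 units. Rpl23 read 60166, 52032, 33125 and 36225 units. Both were highest on replicate 1 and similar on replicates 3 and 4. Rpl5 read 30206, 20193, 10047 and 19663 units. All 3 were lowest on replicate 3. Rpl5 was close on replicates 2 and 4, where Rpl11 and Rpl23 were higher on replicate 2, and its level was 6.81 ± 2.09 (SD, n = 4). Before scaling the SD of Rpl5 was 0.66 log2 units.

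Among the other large subunit genes, Rpl3 and Rpl10 lie by the peptidyl transferase centre and Rpl39 lines the exit tunnel. Rpl3 read 63235, 36922, 35464 and 40992 units, a level of 8.02 ± 2.04 (SD, n = 4). Its SD before scaling was 0.38 log2 units. Rpl10 read 41893, 28924, 24773 and 25667 units. Rpl39 read 43645, 28640.3, 16663 and 29404 units. Rpl3 and Rpl10 kept replicates 2, 3 and 4 close together, while Rpl39, as Rpl5, was close on replicates 2 and 4 and clearly lower on replicate 3. Rpl9, another protein of the 60S subunit, had the same profile, with 22299.9, 14604, 7334 and 15219 units, and so did Rpl30, which in yeast controls the splicing of its own transcript, with 15163, 9864, 5958 and 11083 units.

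Rpl13a, which in human monocytes leaves the ribosome to join the GAIT complex that silences inflammatory mRNAs, read 62813, 46436, 33019 and 37029 units. Rpl38, needed in mice for the translation of a subset of Hox mRNAs, read 66145, 61366, 33419 and 45335 units. Rpl10a, which varies between ribosomes in mouse stem cells, read 55874, 32828, 31084 and 34373 units. For all 3 the highest signal was on replicate 1 and the lowest on replicate 3. Rpl32, at times used as a reference gene, read 121292, 98423, 89321 and 90309 units, with an SD of 0.20 log2 units before scaling. This SD is that of the brightest of its 6 probes and does not hold for all of them. Before scaling, replicate 3 minus 4 ranged over the 6 probes from -0.19 to 1.02 log2 units. Replicate 1 minus 2 ranged from -0.24 to 0.45. Rpl41, the smallest ribosomal protein, had the brightest probe of the family, at 187377, 168576, 130767 and 126932 units. Rpl41 was named after its values were seen.

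In the small subunit, Rps6, the substrate of S6 kinase below mTORC1, read 33053, 26574, 17677 and 19373 units, a level of 7.14 ± 1.82 (SD, n = 4). Its SD before scaling was 0.42 log2 units. Rps3, which sits at the entry of the mRNA channel, read 61967, 45754, 42013 and 35194 units. Rps19, the first gene found mutated in human Diamond-Blackfan anaemia, read 91666, 78629, 56493 and 59683 units. Each was highest on replicate 1, with a highest over lowest signal of 1.87, 1.76 and 1.62. Rps4x, which in humans escapes X inactivation, read 14046, 8316, 5763 and 7477 units, and Rps25, which helps some viral and cellular mRNAs to start translation without a cap, read 43043, 32273, 16786 and 26634 units. Rps20, a protein of the head of the 40S subunit, read 82680.4, 69062, 47991 and 61986 units. These 3 were lowest on replicate 3.

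Rpsa, also known as the laminin receptor precursor, read 59929.8, 38951, 32903 and 29103 units. It was highest on replicate 1 and lowest on replicate 4. Rps23, a protein of the decoding centre, read 15212, 17289.8, 12849.5 and 13507 units. It had the smallest SD before scaling of all 77 genes, 0.19 log2 units, and was highest on replicate 2. Rps27a, which is made as a fusion with ubiquitin and is one of the cell's ubiquitin genes, read 75412, 62767, 44470.1 and 46133 units.

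Among the 77 genes, both paralogs whose symbol ends in l had other profiles than the genes they are named after. The paralog Rpl22l1 lies outside the symbol pattern and was not set against Rpl22. Rps27l, whose human counterpart is a target of p53, read 14706, 11969, 6048 and 9281 units over 10 spots, while Rps27 read 60152, 42403, 42019.9 and 35893 units. Between replicates 3 and 4 the paralog was lower on replicate 3 and Rps27 was higher on it. Rpl3l replaces Rpl3 in the ribosomes of heart and skeletal muscle. It read 47.1, 535, 231 and 27.0 units on its 1 spot an array, and its level averaged -0.56 ± 0.43 (SD, n = 4). Its flag of well above background held on replicates 1 and 4, where the dimmest control RNA read 3.83 and 3.92 units, but on replicate 2 its signal of 535 lay beside a control at 537 units. Rpl10l and Rpl39l, the germline paralogs of Rpl10 and Rpl39, had no probe by these names.

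After scaling, the median SD of level over the 77 genes was 1.87, with a range of 0.43 to 2.15, and over all named genes it was 1.53. Over the 1434 genes of over 1000 units on every array, 76 of which are ribosomal protein genes, it was 1.91. These 1434 genes had a median level of 4.28, against 8.02 for the 77 genes, so as a set they were dimmer than the family. Without scaling, the median SD of log2 signal was 0.43 over the 77 genes, 2.11 over all named genes and 0.51 over these 1434 bright genes. Leaving out Rpl3l, at 2.00, the unscaled SD went up to 0.90 in Rpl35, a protein at the tunnel exit, and to 0.83 in Rplp0 and 0.82 in Rpl27. The values of Rpl35 and Rplp0 rest on 1 spot an array, and that of Rpl27 includes 1 low spot on replicate 4, described below. The unscaled signal was highest on replicate 1 in 74 of the 77 genes, as in 95.3% of the 1434 bright genes. The exceptions were Rpl3l, Rpl35 and Rps23, all highest on replicate 2. The second probe of Rpl35, read by 10 spots, was highest on replicate 1, with 9514, 8714, 5130 and 5612 units. The lowest unscaled signal was on replicate 3 in 50 genes and on replicate 4 in 26, and 58.7% of the bright genes were lowest on replicate 3.

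The median difference in level over the 77 genes was 3.70 for replicate 1 minus replicate 2, 2.22 for replicate 1 minus 3 and -0.23 for replicate 1 minus 4. It was -1.46 for replicate 2 minus 3, -3.91 for replicate 2 minus 4 and -2.39 for replicate 3 minus 4. Over the 6923 named genes with a brightest probe well above background on every array, these medians were 3.00, 2.09, -0.01, -0.82, -2.97 and -2.03. Before scaling, the medians of the ribosomal protein genes were 0.44, 0.91, 0.74, 0.49, 0.32 and -0.11, and the signs of 3 of them turned. Over the 1434 bright genes the medians before scaling were 0.59, 1.04, 0.94, 0.47, 0.35 and -0.07. The 75th percentile that was subtracted stood at 88.7, 851, 220 and 45.2 units on replicates 1 to 4. The floor of an array thus enters every level through this percentile. Medians of level and those before scaling differ only by the percentiles subtracted. For replicate 1 minus 2 the median was 3.70 as a level and 0.44 before scaling. For replicate 2 minus 4 these were -3.91 and 0.32. The cause of the differences before scaling was not tested.

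A shift common to all genes drops out when each gene is set against the median of the family. Between replicates 1 and 4, the arrays with the low floor, 71 of the 77 genes lay within 0.5 log2 units of the family's median. Of the others 5 lay above it, among them Rpl27 by 1.16, Rplp0 by 1.07, Rpl35 by 1.04 and Rps24 by 0.61, where 3.0% of the 1434 bright genes lay as far above their own median. Rps23 lay below it, at -0.57, as 3.0% of the bright genes did. Rps24, a gene of human Diamond-Blackfan anaemia, was named after its values were seen. Of these 6 genes, 5 have 1 probe on the array. Rpl35 has a second probe, read by 10 spots, that departed by 0.02. With normexp background correction or the deposited value table, 4 genes lay above and 0 below.

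**Figure D2:**
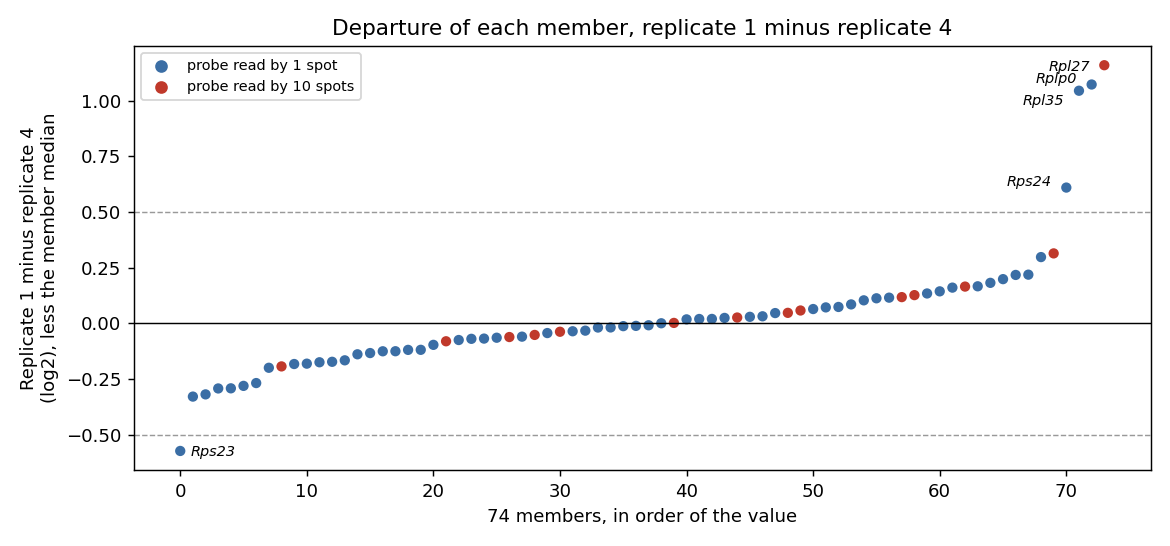
Difference between replicates 1 and 4 of each of 74 ribosomal protein genes (log2, less the median of all 77), in order of size, with genes whose probe is read by 10 spots in red and by 1 spot in blue. The dashed lines mark 0.5 log2 units either side, and 5 named genes lie outside them, from Rps23 at -0.57 to Rpl27 at 1.16.

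The value of Rpl27, a protein of the 60S subunit, depended on 1 of its 10 spots. Rpl27 read 9769, 6228, 3959 and 2611 units on replicates 1 to 4 as the geometric mean of the spots used. On replicate 4, 1 spot read 39.7 units without being marked as an outlier, and the lowest of the others read 2594. The same spot read 18.1 units on replicate 3, where it was marked as an outlier and left out. With the median of the spots in place of their mean, the signal was 4218 units on replicate 4 against 4388 on replicate 3, and the departure between replicates 1 and 4 was 0.50, just under the limit, in place of 1.16. For Rplp0, Rps24 and Rps23, read by 1 spot an array, no such check within the array exists.

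**Figure D3:**
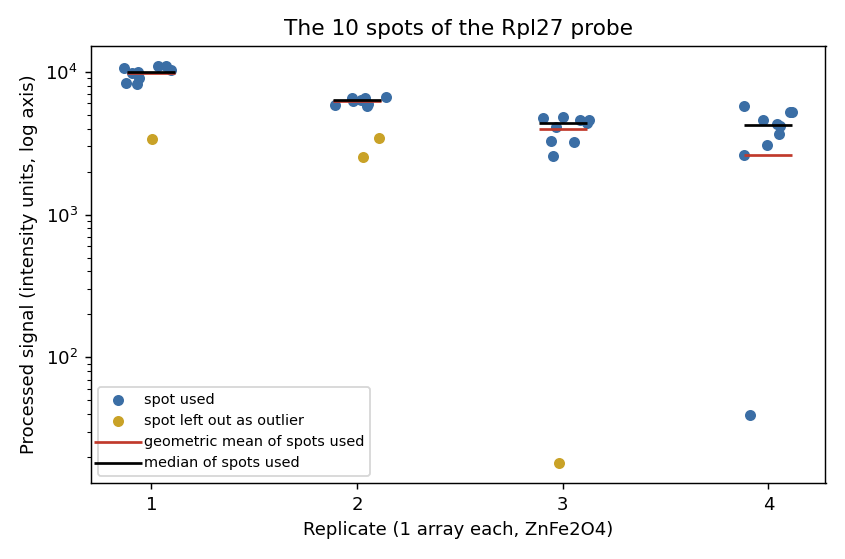
Processed signal (intensity units, log axis) of the 10 spots of the Rpl27 probe on each array, with spots left out as outliers in yellow and the geometric mean and median of the spots used as red and black bars. On replicate 4 a single low spot holds the mean at 2611 units, under the median of 4218.

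Between replicates 3 and 4 more genes departed, 16 in all. Of these, 10 genes lay over 0.5 log2 units below the family's median, which means low on replicate 3 beside the family, where 10.2% of the 1434 bright genes lay as far below their own. They were Rpl9 at -0.94, Rpl5 at -0.86, Rps3a at -0.81, Rpl30 at -0.78, Rpl39 at -0.71, Rpl26 at -0.66, Rps25 at -0.55, Rps7 at -0.54, Rpl23a at -0.53 and Rps27l at -0.51. Above it lay 6 genes, Rpl3l at 3.20, Rplp0 at 1.24, Rpl35 at 1.13, Rpl27 at 0.71, Rps14 at 0.60 and Rpl13 at 0.55, where 3.7% of the bright genes did. Rpl3l is not 1 of the bright genes. It read 231 and 27.0 units on replicates 3 and 4, where the dimmest control RNA read 109 and 3.92 units. The low Rpl27 spot on replicate 4 enters here too, and with the median of the spots Rpl27 departed by 0.17. The second probe of Rpl35 lay at -0.02. As a share of the family, 13.0% lay below and 7.79%, with Rpl3l counted, above, so the share below was near that of the bright genes. Quantile normalization left 7 below and put 7 above. Rps3a, Rpl26, whose human protein binds the p53 mRNA, Rps7, Rpl23a, Rps14 and Rpl13 were named after their values were seen.

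In the other pairs fewer genes departed. For replicate 1 minus 2 it was 1 above and 3 below, against 1.81% and 6.35% of the bright genes, and for replicate 1 minus 3 it was 3 and 2, against 5.37% and 3.91%. For replicate 2 minus 3 it was 4 and 2, against 8.3% and 4.46%, and for replicate 2 minus 4 it was 5 and 1, against 9.27% and 2.51%. As shares of the 77 genes, each of these counts lay under that of the bright genes, a dimmer set not matched to the family in brightness. Rpl3l, which is not 1 of the bright genes, is counted in each of these pairs.

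For replicate 3 minus 4, of the 10 departing genes with several probes, 6 had every probe past 0.5 log2 units on the same side. The brightest probe of each was past this limit by selection, so only the other probes bear on their agreement. The same share was not computed over the bright genes. The 5 probes of Rpl9 lay between -1.12 and -0.60, the 2 of Rpl5 between -0.98 and -0.86, and the 4 of Rpl39 between -0.76 and -0.61. The 4 probes of Rpl23a, which forms the docking site for nascent chain factors at the tunnel exit, lay between -0.68 and -0.53. The 2 of Rpl26 both lay at -0.66. On the other side, the 3 probes of Rps14, a gene of the human 5q- syndrome, lay between 0.60 and 0.95. In the other 4 genes the probes disagreed. They ranged from -0.93 to -0.17 in Rpl30, from -1.03 to -0.46 in Rps25, from -0.02 to 1.13 in Rpl35 and from -0.12 to 0.55 in Rpl13. A further 6 departing genes have 1 probe. Probes of 1 gene share the sample and the transcript, and some may overlap in sequence, so they are not replicates of the culture.

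**Figure D4:**
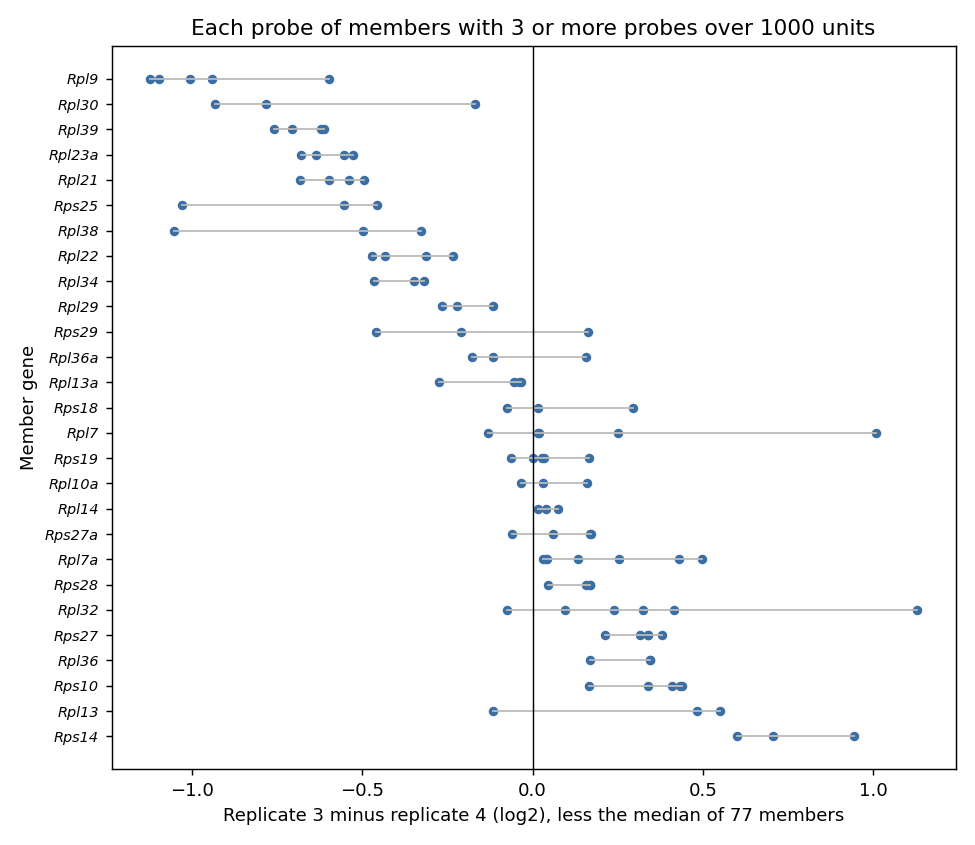
Difference between replicates 3 and 4 (log2, less the median of the 77 genes) of each probe of over 1000 units on every array, for 27 ribosomal protein genes with 3 or more such probes, 1 point a probe. Probes of 1 gene sit near each other in most rows, as in Rpl9 and Rpl39 on the left and Rps14 on the right, with single probes apart in Rpl7 and Rpl32.

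The share of the variance of probe differences that lay between genes was computed over 157 probes of 52 ribosomal protein genes, all with signals of over 1000 units. For replicate 3 minus 4 it was 73.1%, with an SD of 0.37 log2 units between genes and 0.22 within a gene. It was 66.0% for replicate 1 minus 3 and 64.2% for replicate 2 minus 3. For pairs without replicate 3 it was 20.8% (replicate 1 minus 2), 17.0% (replicate 1 minus 4) and 15.7% (replicate 2 minus 4). The share was thus higher in the pairs that involve replicate 3. Over 351 other bright probes of 154 genes the shares were 74.2%, 66.1% and 65.2% with replicate 3 and 28.5%, 47.7% and 26.8% without it, so a gene-wise profile of replicate 3 was seen outside the family too. Its cause was not tested.

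Probes of 1 gene agreed on detection in 52 of the 54 genes with several probes. The same share was not computed over all named genes, so this count marks no trait of the family. In Rpl28, a large subunit protein absent from budding yeast, a probe of 10 spots read 13254, 10671, 8261 and 6363 units while the other read 3.94, 224, 13.5 and 3.42 units and was well above background on replicate 2 only. In Rpl36a, 3 probes were bright, the brightest at 34476, 25565, 17549.7 and 21447 units, and the fourth read 16.3, 499.8, 65.5 and 3.36 units. A probe of Rpl15 was also dim, at 109, 365, 127 and 70.7 units, while the gene's other probe read 64576, 54330.3, 42581 and 39038. All 3 dim probes were read by 1 spot and were highest on replicate 2, where the floor was highest. In all, 181 of the 187 probes read over 1000 units on every array, a count that was not made over all probes. Spots of 1 probe differed little, with a median SD over the probes of 10 spots of 0.09, 0.08, 0.11 and 0.15 log2 units on replicates 1 to 4.

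Other genes of the ribosome and its control were read from lists. Fau, whose product holds the 40S protein eS30, read 42271, 26432, 23604 and 23525 units, and the 40S scaffold Rack1 read 16949.9, 9304, 7713 and 8396. All 5 measured genes of their list, Rpl22l1 and Rsl24d1 among them, stood well above background on each array. Of 24 measured ribosome biogenesis factors 23 were, and 24 on replicates 1 and 4 alone, with the snoRNA methylase Fbl at a level of 5.51 ± 2.04, Nop56 at 3.15 ± 1.93 and Nop58 at 0.38 ± 2.38 (SD, n = 4). All 13 elongation factors and other TOP mRNAs were, among them Eef1a1 at 7.90 ± 1.89, Eef1b2 at 6.57 ± 1.85 and Eef1d at 6.74 ± 1.95 (SD, n = 4). All 14 measured regulators of mTORC1 and of TOP mRNAs were too, with Mtor at -0.74 ± 0.15, Rptor at 2.71 ± 1.51 and Mlst8 at 1.25 ± 1.62 (SD, n = 4). On replicates 1 and 4 alone, the counts of these 2 lists and of the first were the same. Mtor read 61.0, 469, 134 and 25.1 units, Nop58 read 435, 237, 77.3 and 271 units and Mlst8 read 496, 496, 350 and 279 units. On replicate 2 all of them lay under the dimmest control RNA at 537 units, and on replicate 3 Nop58 lay under its 109 units. Other genes of these lists also lay under it on replicate 2, among them Eif4ebp2 at 302, Tsc1 at 230 and Rps6kb1 at 526 units. Their levels and SDs over the 4 arrays are limited by that floor. For all genes of these lists, bright ones included, the SD of level also depends on the percentiles subtracted. The median level was 5.92, 2.46, 5.87 and 1.02 over these 4 lists, against 8.02 for the 77 genes and -1.43 for all named genes.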

How the data were processed

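RNA of 4 cultures was read on 1-colour (Cy3) arrays. The authors deposited intensity per spot from Agilent Feature Extraction 11.0.1.1, per the file headers. Its processed signal is background-subtracted, and no scaling between arrays is recorded. The authors' deposited value table equals the median spot intensity on all 62976 spots of each array, with column medians of 54, 604.5, 219 and 46.

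Control spots and spots marked as outliers were left out, log2 signals of the spots of a probe were averaged, and each array's 75th percentile was subtracted. Probes were named by accession through the RefSeq gene table (GRCr8), which gave 21109 of 45598 probes a symbol. The probe of highest mean signal stands for a gene. A gene is well above background if the scanner flag held for at least 0.5 of the spots of any of its probes. With 1 condition there are no tests. The number of arrays limits the precision. Python 3.11.15, pandas 2.3.3, numpy 2.4.6, R 4.3.3 and limma 3.58.1 (normexp, quantile) were used. Of the calculations reported, that of the variance share was tested on simulated data.

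The members, lists and alternatives were chosen with earlier results of these data known, and the limits of 1000 units and 0.5 log2 units were set after the values were seen. Genes were named by role (stalk, paralogs, MDM2 binding, specialised functions), by the 3 largest and smallest SDs, by the 3 largest differences either way between replicates 1 and 4, and by probes that disagree on detection. For other lists the first 3 measured genes were named. Alternatives covered detection, scaling, background correction, spots, probes and leaving out each replicate. Values of some genes that the rule names, or that a figure would show, are not reported here, and counts over the family include them.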

Additional observations from a re-analysis of the deposited data

How the results depend on the processing

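The count of 77 genes well above background held under the other detection flag, the brightest probe alone, NM accessions alone, outlier spots kept, replicates 1 and 4 alone and without each replicate (77 to 77), and was 76 against the dimmest spike-in. The deposited value table, the unscaled signal and the median of spots were added after the values were seen. The median level of 8.02 became 5.20 with the percentile over detected probes, 2.24 with spike-in scaling and 15.39 unscaled, 9.52 on replicates 1 and 4 alone, and 7.42 to 8.74 without each replicate. The median SD of 1.87 became 0.35, 0.36 and 0.43 under these settings, 0.15 with quantile normalization, 1.47 with normexp, 0.17 on replicates 1 and 4 alone and 1.33 to 2.20 without each replicate, lowest without replicate 2. For replicate 1 minus 2, the median difference of 3.70 became 0.44 (detected percentile), -0.11 (spike-in), -0.05 (quantile), 3.06 (normexp) and 0.44 (unscaled). For 1 minus 3, 2.22 became -0.14 (detected percentile), 0.63 (spike-in), 0.10 (quantile) and 0.91 (unscaled). For 1 minus 4, -0.23 became 0.25 (spike-in), 0.25 (normexp), 0.11 (value table) and 0.74 (unscaled). For 2 minus 3, -1.46 became -0.56 (detected percentile), 0.76 (spike-in), 0.15 (quantile), -1.07 (normexp), -1.12 (value table) and 0.49 (unscaled). For 2 minus 4, -3.91 became -0.68, 0.38, 0.00, -2.83, -3.21 and 0.32 under the same 6 settings. For 3 minus 4, -2.39 became -0.06 (detected percentile), -0.32 (spike-in), -0.09 (quantile), -1.70 (normexp) and -0.11 (unscaled). The cause was not tested beyond what these settings subtract. The detected percentile, the spike-in scaling and the unscaled signal move the level of every gene by the same amount on an array, the 32 named genes included. No paired analysis was possible because the arrays hold 1 condition. Signal over background limits Rpl3l and the dim probes.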
